A study of Mus musculus with 2 samples.

Results

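The 10 genes described here encode transcription factors and cofactors that act in osteoclast formation: the NFAT factors Nfatc1 and Nfatc2, the MITF-TFE factors Mitf, Tfe3 and Tfeb, the repressors Prdm1 and Bhlhe40, the mitochondrial regulators Ppargc1b and Esrra, and Myc. They were chosen by name, with earlier results of these data known, and all 10 were found among the 16614 genes listed. RNA came from bone marrow macrophages of C57BL/6 mice, grown for 3 days in M-CSF, the growth factor of the macrophage lineage, and for 2 further days with RANKL, the cytokine that drives osteoclast formation. The cultures were Foxo3 KO, lacking the forkhead factor FoxO3, and WT, with 1 library each. Both cultures received M-CSF and RANKL, and no culture without RANKL was analysed here. The labels do not give the knockout allele, the sex or age of the mice, or whether animals were pooled.

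In osteoclast precursors, RANKL signalling raises intracellular calcium, the phosphatase calcineurin removes phosphate from NFAT proteins, and NFATc1 enters the nucleus and switches on the genes for fusion and bone resorption. MITF and TFE3 act beside it on many of the same genes, Blimp1 (the product of Prdm1) silences genes that hold precursors back, and PGC-1β with its partner ERRα builds up mitochondria. MYC drives growth and has been placed upstream of ERRα in osteoclasts.

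The sequences below come from the RefSeq table of start sites (build GRCm38.p6, the assembly of mm10), with 250 bases before and 50 bases after each start. They are shown because the KO removes a factor that binds GTAAACA, and because MITF, TFE3, TFEB, MYC and BHLHE40 bind CACGTG, MITF also binds CATGTG, and ERRα binds AAGGTCA. The 4 motifs were searched on both strands, and capitals mark each match. The table held 12 windows of Nfatc2, Mitf, Tfe3, Tfeb, Prdm1 and Esrra, and windows of the other members were not used here. GTAAACA occurred in 2 of the 12, at position -185 from a start of Nfatc2 and at position -231 from a start of Prdm1, against 3.6% of all 32851 windows. AAGGTCA occurred in 1 of the 12, in a window of Mitf, against 4.7% of all windows. Neither CACGTG nor CATGTG occurred in the 12, against 7.2% and 14.2% of all windows. Each printed window held 1 of the 4 motifs, so no matches of different motifs overlapped. A match describes the letters and does not show binding.
Nfatc2, chr2:168601608-168601907, minus strand, FoxO motif in capitals: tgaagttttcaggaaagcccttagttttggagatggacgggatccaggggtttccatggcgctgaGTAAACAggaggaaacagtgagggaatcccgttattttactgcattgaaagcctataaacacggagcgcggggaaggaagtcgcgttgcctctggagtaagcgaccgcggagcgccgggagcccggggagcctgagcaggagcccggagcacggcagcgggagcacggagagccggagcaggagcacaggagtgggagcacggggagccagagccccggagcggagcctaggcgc
Prdm1, chr10:44458699-44458998, minus strand, FoxO motif in capitals: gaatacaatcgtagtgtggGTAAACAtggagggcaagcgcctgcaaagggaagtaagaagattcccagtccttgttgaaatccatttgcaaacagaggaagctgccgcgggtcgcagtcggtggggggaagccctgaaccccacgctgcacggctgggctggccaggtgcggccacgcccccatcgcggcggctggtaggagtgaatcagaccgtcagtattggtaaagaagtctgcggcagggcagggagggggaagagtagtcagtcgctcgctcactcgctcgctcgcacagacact
Mitf, chr6:97806808-97807107, plus strand, ERR motif in capitals, read on the other strand: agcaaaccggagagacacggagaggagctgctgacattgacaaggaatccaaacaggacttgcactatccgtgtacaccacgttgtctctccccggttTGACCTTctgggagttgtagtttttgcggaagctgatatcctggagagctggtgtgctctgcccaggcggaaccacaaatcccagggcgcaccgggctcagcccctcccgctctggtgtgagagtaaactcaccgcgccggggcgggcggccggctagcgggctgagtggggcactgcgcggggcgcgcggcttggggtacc

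Osteoclast genes were abundant in both libraries. All 8 osteoclast markers were measured, led by the acid phosphatase gene Acp5 at 8636 FPKM in the Foxo3 KO and 7737 FPKM in the WT library. FPKM counts fragments per kilobase of transcript, scaled to the library. The markers summed to 22780 FPKM in the KO and 20240 FPKM in the WT library, and 6 of 8 were higher in the KO, 5 under either scaling. All 12 measured macrophage markers were lower in the KO, with sums over the 13 found of 9441 FPKM in the KO and 11680 FPKM in the WT library. The most abundant, Lyz2, stood at 5674 and 7501 FPKM in the KO and the WT. The drop was not uniform, as 3 markers named after their values were seen show. Csf1r (694.6 and 697.1 FPKM in the KO and the WT) and Cd68 (1546 and 1573 FPKM) were nearly level. Cd36 stood at 31.9 FPKM in the KO and 84.7 FPKM in the WT. In bulk RNA, fewer macrophage-like cells and less of their RNA per cell cannot be told apart. Foxo3 itself, the targeted gene, stood at 0.548 FPKM in the KO and 10.3 FPKM in the WT library. Of the other cell types, the T, B and plasma cell markers summed to 101.5 FPKM in the KO and 99.4 FPKM in the WT, nearly all of it Sdc1 at 94.8 and 92.3 FPKM, with Cd3e listed at 0 in both. Mast cell and melanocyte markers summed to 1.36 FPKM in the KO and 1.19 FPKM in the WT, with Mcpt4, Tpsb2, Fcer1a, Ms4a2 and Dct listed at 0 in both and Tyr the highest. Stromal markers summed to 7.74 FPKM in the KO and 8.20 FPKM in the WT, with Col1a1 the highest and Lum listed at 0 in both, and neutrophil markers to 154.5 and 157.3 FPKM, led by S100a8.

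All 10 regulators were expressed in both libraries, and none differed by 2-fold. Differences were taken as log2(KO + 1) minus log2(WT + 1), called the log2 ratio. Genes at 1 FPKM or more in at least 1 library counted as measured, 10003 in all. Past 2-fold, 0 of 10 regulators were higher and 0 of 10 lower in the KO, against 0.12% and 0.2% of measured genes. At a log2 ratio of 0.3219 or more in size (called 0.32 below), the counts were again 0 and 0, against 2.96% higher and 4.16% lower. At 1.1-fold, a limit chosen after the values were seen, 3 were higher (Nfatc1, Esrra and Bhlhe40) and 1 lower (Mitf), against 19.2% and 14.8% of measured genes. The log2 ratio was above 0 for 7 of the 10, against 57.6% of measured genes, and for 6 under either scaling of the libraries. The share of 57.6%, here and below, is that of the values as deposited. It is lower under either scaling and was not recomputed. The median of the 10 was 0.05, beside 0.03 over all measured genes. Because each genotype has 1 library, no replicate error and no test can be given, and each difference describes these 2 libraries.

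**Figure D1:**
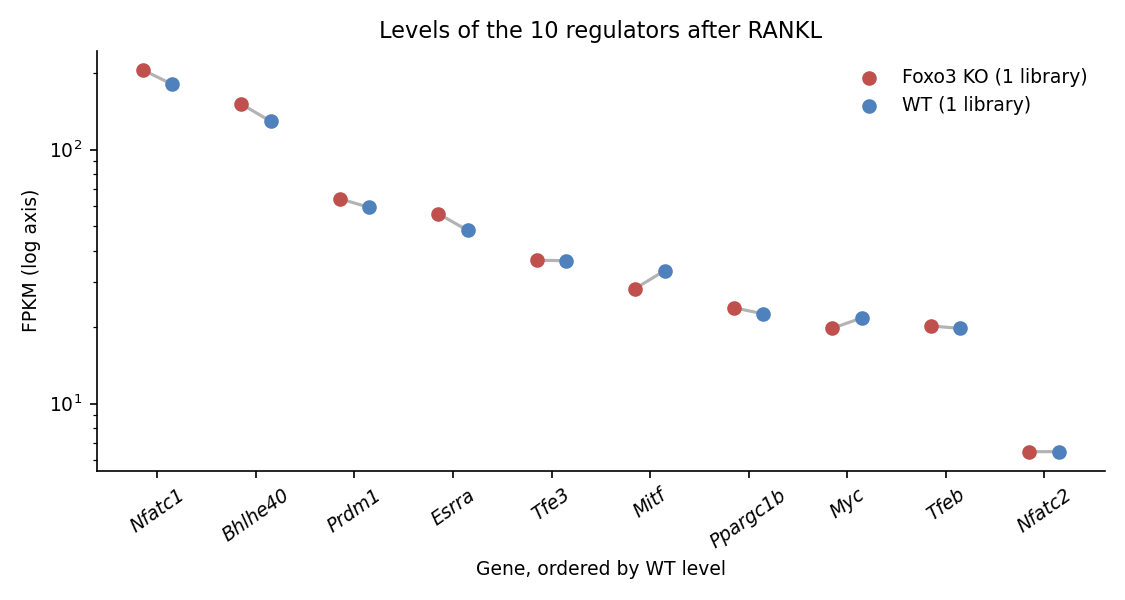
Levels of the 10 regulators in FPKM (log axis) in the Foxo3 KO library (left point of each pair) and the WT library (right point), 1 library each, with no error to draw. Nfatc1 and Bhlhe40 were highest and Nfatc2 lowest in both libraries, and each pair lies close to level.

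The order of levels, which FPKM allows between genes because it is per length, was nearly the same in both libraries. In the KO library it ran Nfatc1, Bhlhe40, Prdm1, Esrra, Tfe3, Mitf, Ppargc1b, Tfeb, Myc and Nfatc2. In the WT library Myc stood above Tfeb, by 21.7 against 19.8 FPKM, where the KO library had 19.8 and 20.2 FPKM for Myc and Tfeb. Without replicates it cannot be said which neighbours in the order differ.

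The number of fragments behind each value was estimated from genes of a few reads, whose values cluster at the worth of 1 fragment. This gave about 34900000 fragments in the KO and 25100000 in the WT library. With the shortest coding transcript of each gene in the GENCODE basic set, Nfatc2 rested on the fewest fragments, about 520 in the KO and 380 in the WT library, and Nfatc1 on the most, about 31020 and 19590. The KO/WT ratio then carried a counting error of 6.75% for Nfatc2 and 0.91% for Nfatc1. These errors rest on the estimated depth and on the shortest transcript, and a longer transcript would make them smaller. They leave out the spread between cultures. The difference exceeded 2 counting errors for 5 members, namely Nfatc1, Mitf, Prdm1, Esrra and Bhlhe40. Ppargc1b and Myc fell just short, at 1.9 and 1.8 counting errors, so the count of 5 depends on the transcript chosen. The share of all measured genes past 2 counting errors was not computed, so the count cannot be called particular to these members.

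**Figure D2:**
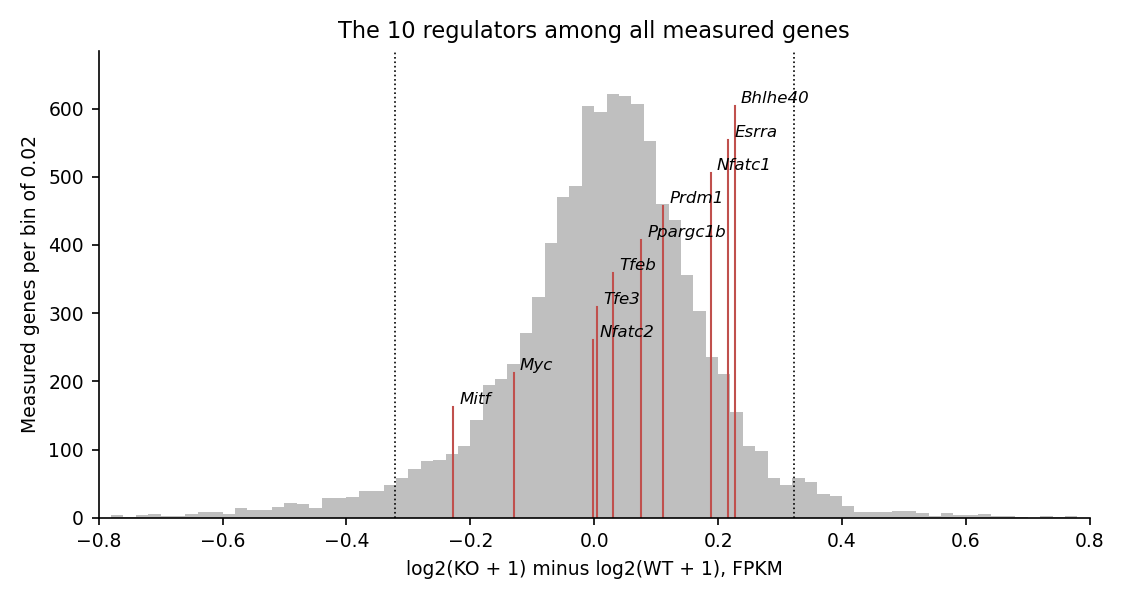
Histogram of the log2 ratio (KO over WT) of the measured genes in bins of 0.02, with a red line for each of the 10 regulators (line heights only separate the names) and dotted lines at a log2 ratio of 0.32 and its negative. The 64 genes beyond 0.8 in either direction lie outside the axis, and all 10 regulators lie between the dotted lines.

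Nfatc1, the factor regarded as the master switch of osteoclast formation (chromosome 18, 80606205 to 80713071), had the highest level of the 10. It stood at 206.1 FPKM in the Foxo3 KO and 180.8 FPKM in the WT library, rank 405 and rank 440 of all listed genes. The KO value was 13.99% above the WT value, with a log2 ratio of 0.19, and 21.3% of measured genes lay as far from 0 or farther. Nfatc2 (chromosome 2, 168476410 to 168601657), which can help start the autoamplification of Nfatc1, stood at 6.46 FPKM in the KO and 6.47 FPKM in the WT library, a log2 ratio of -0.0012. Its level was nearly equal in the 2 libraries.

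The remaining NFAT genes were low beside Nfatc1 and also close between libraries. Nfatc3 read 17.99 FPKM in the KO and 17.8 FPKM in the WT, Nfat5, the member that does not need calcineurin, 10.7 and 10.9 FPKM, and Nfatc4 0.161 and 0.192 FPKM. Nfatc1 made up 85.4% of the summed NFAT level of 241.4 FPKM in the KO and 83.6% of 216.2 FPKM in the WT. The ratio of Nfatc1 to Nfatc2 was 31.9 in the KO and 27.95 in the WT library.

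**Figure D3:**
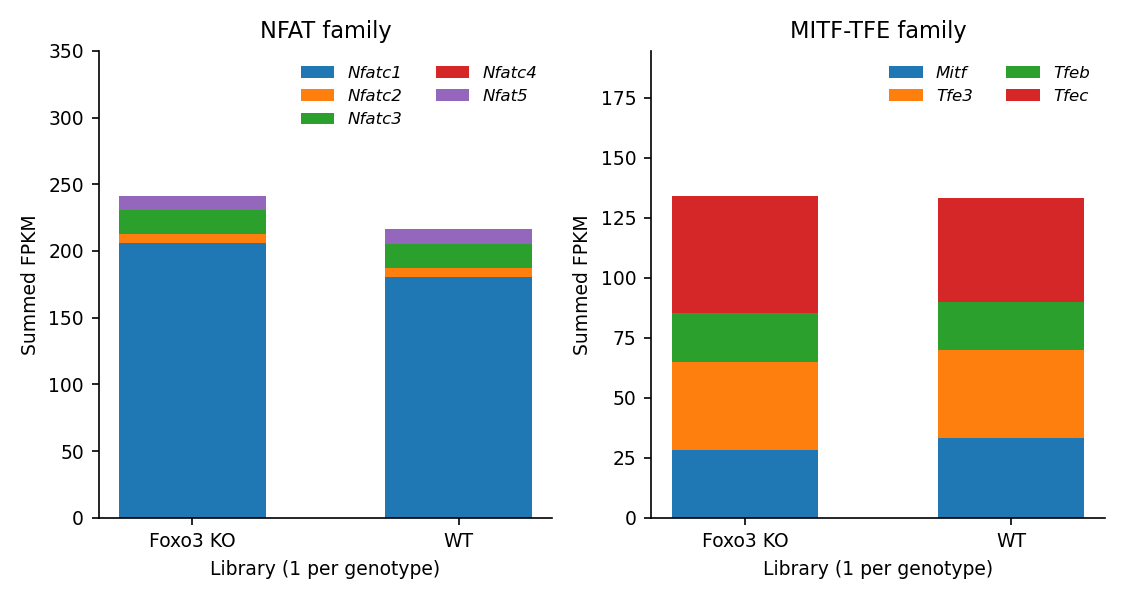
Summed FPKM of the NFAT family (left) and the MITF-TFE family (right), stacked by gene, in the Foxo3 KO and WT library, 1 each. Nfatc1 fills most of both NFAT bars, while the MITF-TFE bars are of nearly equal height with a smaller Mitf and a larger Tfec share in the KO.

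The machinery that turns calcium into NFAT activity was close to level. Of 18 measured genes 9 were higher and 9 lower, while 57.6% of all measured genes were higher. Under either scaling 6 of the 18 were higher. The median of the 18 was -0.0040, beside 0.0253 over all measured genes. The calcineurin catalytic gene Ppp3ca, chosen after its values were seen, stood at 45.4 FPKM in the KO and 45.8 FPKM in the WT. Farthest from 0 was Rcan1, the calcineurin inhibitor that is itself an NFAT target, at 62.9 FPKM in the KO and 76.5 FPKM in the WT, a log2 ratio of -0.28 opposite in sign to that of Nfatc1. Plcg2, the phospholipase that releases calcium downstream of ITAM receptors, had a log2 ratio of 0.13, and Csnk1a1, a kinase that acts on NFAT, one of 0.11. None of the 18 passed a log2 ratio of 0.32 in size, against 2.96% higher and 4.16% lower among all measured genes.

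Among 11 measured DNA-binding partners of NFATc1, 8 had the higher value in the KO, against 57.6% of measured genes. After either rescaling 6 did. The median of 0.04 was 0.01 after either rescaling. The AP-1 genes Junb (145.6 FPKM in the KO and 101.5 FPKM in the WT) and Jund (30.8 and 20.6 FPKM) passed the limit of 0.32, at log2 ratios of 0.52 and 0.56. Exons of Junb overlap those of Prdx2 and exons of Jund those of Gm11175, so reads may not be separable. Fos, which RANKL needs to induce Nfatc1 and which was chosen after its values were seen, stood at 75.01 FPKM in the KO and 71.2 FPKM in the WT. Rbpj, a restrainer of osteoclast formation, had a log2 ratio of -0.16.

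Of the genes that NFATc1 is known to switch on, 9 of 12 were higher in the KO library (8 when the libraries were rescaled either way). Of all measured genes, 57.6% were higher without rescaling. The 12 include all 8 osteoclast markers given above, so the counts for these lists are not separate observations. The median of the 12 was 0.12, and 0 of 12 passed 2-fold. Car2, the carbonic anhydrase that supplies acid, stood at 215.3 FPKM in the KO and 172.0 FPKM in the WT, and was the 1 member past a log2 ratio of 0.32, by a narrow margin at 0.3222 and no longer under either scaling (0.2959 and 0.2944). Mmp9, a matrix protease, stood at 5815 and 5009 FPKM in the KO and the WT. Itgb3, the β3 integrin chain, went the other way, at 83.2 FPKM in the KO and 101.3 FPKM in the WT. At 1.1-fold 6 of the 12 were higher in the KO and 1 lower, against 19.2% and 14.8% of measured genes. The macrophage markers named above were lower in the KO library. The part of culture composition in these differences was not tested.

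Mitf (chromosome 6, 97807052 to 98021349) was the regulator lowest in the KO relative to WT. It stood at 28.4 FPKM in the Foxo3 KO and 33.4 FPKM in the WT library, a difference of -15.06% of the WT value, with a log2 ratio of -0.23, and 14.7% of measured genes lay as far from 0. Its relatives Tfe3 (chromosome X, 7762560 to 7775202) and Tfeb (chromosome 17, 47737030 to 47792419), which share its DNA motif and pair with it, stood nearly level. Tfe3 read 36.7 FPKM in the KO and 36.5 FPKM in the WT, a log2 ratio of 0.0052 that turned negative under either scaling (-0.0205 and -0.0219). Tfeb, the main driver of lysosomal genes, read 20.2 FPKM in the KO and 19.8 FPKM in the WT, a log2 ratio of 0.03. Mitf has alternative starts, 3 of which had a window in the table, and the files give 1 value for the gene.

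Tfec, the fourth gene of the family and one largely restricted to myeloid cells, was the most abundant of them, at 48.9 FPKM in the KO and 43.3 FPKM in the WT (log2 ratio 0.17). Summed over the family the level was 134.1 FPKM in the KO and 133.0 FPKM in the WT library. Within that sum Mitf held 21.2% in the KO and 25.1% in the WT, and Tfec held 36.4% and 32.6%. The ratio of Tfec to Mitf was 1.72 in the KO and 1.30 in the WT library, a difference of these 2 libraries with no replicate behind it.

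The nutrient pathway that holds MITF-TFE proteins in the cytoplasm split nearly evenly by sign, with 8 of 15 measured genes higher and 7 lower. Among all measured genes 57.6% were higher. At 1.1-fold 0 were higher and 3 lower, against 19.2% and 14.8% of measured genes. The median of 0.0106 was negative under either scaling. Fnip2, a partner of folliculin in the control of TFE3 and TFEB, was the exception past a log2 ratio of 0.32 in size, at 23.9 FPKM in the KO and 34.3 FPKM in the WT (log2 ratio -0.50). Rragc, a Rag GTPase that recruits the factors to lysosomes and whose exons overlap 4930535I16Rik, had a log2 ratio of -0.17. Lamtor5, of the lysosomal anchor for Rag GTPases, had one of 0.09.

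Known lysosomal and autophagy targets of TFEB and TFE3 leaned lower in the KO, in 12 of 20 genes, while 57.6% of measured genes were higher. After either rescaling 14 of the 20 were lower. The median of these targets was -0.0206, with a mean of -0.0692. Gpnmb, a glycoprotein gene that MITF and TFE3 drive, stood at 858.3 FPKM in the KO and 1091 FPKM in the WT (log2 ratio -0.35), the 1 member past 0.32 in size. Ctsd, the protease cathepsin D, stood at 2418 FPKM in the KO and 2964 FPKM in the WT, and its exons overlap those of Gm49369. Psap, the precursor of lysosomal saposins, stood at 2942 and 3542 FPKM in the KO and the WT. At 1.1-fold 7 of 20 were lower, against 14.8% of measured genes, and 1 was higher, against 19.2%. The higher gene was the sialidase gene Neu1 (0.15, named after its values were seen). Macrophage markers were lower in 12 of 12 measured cases, by differing amounts, and their part was not tested. Many of the 20 target genes are also abundant in macrophages.

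CACGTG was found in 7 of 18 windows of the target genes with an entry, 38.9%, against 7.2% of all windows and 10.4% of the 9952 windows of measured genes. The share was not particular to these targets. In the nutrient pathway genes it was 5 of 14 windows, 35.7%, and in the DNA-binding partners of NFATc1 0 of 13. The window of Ctsd, shown because it holds the motif at positions -245 and -98 from the start, read as follows.
Ctsd, chr7:142387778-142388077, minus strand, CACGTG in capitals: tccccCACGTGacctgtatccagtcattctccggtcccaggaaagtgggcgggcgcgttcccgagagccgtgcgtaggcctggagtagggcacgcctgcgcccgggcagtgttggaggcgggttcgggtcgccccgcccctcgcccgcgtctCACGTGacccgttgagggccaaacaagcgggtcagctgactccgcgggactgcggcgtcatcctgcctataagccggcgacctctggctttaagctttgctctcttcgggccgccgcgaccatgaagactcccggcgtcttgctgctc

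Prdm1 (chromosome 10, 44437177 to 44528501), which encodes the repressor Blimp1, stood at 64.0 FPKM in the Foxo3 KO and 59.2 FPKM in the WT library. The KO value was 8.17% above the WT value, a log2 ratio of 0.11 that 43.1% of measured genes matched or passed. Of the genes that Blimp1 silences in osteoclast precursors, 2 are described. Irf8, an interferon factor that holds back osteoclast formation, stood at 20.3 FPKM in the KO and 29.0 FPKM in the WT, a log2 ratio of -0.49. Bcl6, a zinc finger repressor named after its values were seen, stood at 6.82 FPKM in the KO and 7.99 FPKM in the WT, a log2 ratio of -0.20. Both were lower under either scaling too. The ratio of Prdm1 to Irf8 was 3.15 in the KO and 2.04 in the WT library. Irf8 is also a macrophage gene, and all 12 measured macrophage markers were lower in the KO, the part of which was not tested.

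Bhlhe40 (chromosome 6, 108660629 to 108666925), whose product binds E-boxes and represses many of its targets, was the regulator highest in the KO relative to WT. It stood at 151.3 FPKM in the Foxo3 KO and 129.1 FPKM in the WT library, 17.15% above the WT value, with a log2 ratio of 0.23, and 14.9% of measured genes lay as far from 0. Its exons overlap those of the opposite-strand model 0610040F04Rik. Its close relative Bhlhe41 differed in the other direction at a low level, with 2.22 FPKM in the KO and 3.31 FPKM in the WT (log2 ratio -0.42). Bhlhe40 made up 98.6% of the summed level of the pair in the KO and 97.5% in the WT.

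Esrra, the gene of the orphan receptor ERRα (chromosome 19, 6910977 to 6921813), stood at 56.0 FPKM in the Foxo3 KO and 48.03 FPKM in the WT library. The KO value was 16.51% above the WT value, a log2 ratio of 0.22 that 16.4% of measured genes matched or passed. Exons of Esrra overlap those of Trmt112 on the opposite strand, which stood at 55.15 FPKM in the KO and 47.8 FPKM in the WT (log2 ratio 0.20), and those of Mir6990. Strand use in counting is not given, so reads of Esrra and Trmt112 may not be separable and the value of Esrra is uncertain.

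Ppargc1b, the coactivator PGC-1β (chromosome 18, 61298136 to 61400431), stood at 23.8 FPKM in the Foxo3 KO and 22.6 FPKM in the WT library, 5.66% above the WT value, with a log2 ratio of 0.08. It was the main PGC-1 gene of these cells. Ppargc1a, its relative in muscle and brown fat, read 0.0190 FPKM in the KO and 0.0198 FPKM in the WT, and Pprc1, whose exons overlap those of Ldb1, read 13.2 and 13.4 FPKM. Ppargc1b held 64.4% of the summed PGC-1 level in the KO and 62.8% in the WT.

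Mitochondrial genes known as targets of PGC-1 and ERRα were almost uniformly higher in the KO: 18 of 20, against 57.6% of measured genes. The count was 18 after either rescaling too, the median was 0.16 and none passed 2-fold. At 1.1-fold 16 of 20 were higher and 0 lower, against 19.2% and 14.8% of measured genes. Ndufb4, of respiratory complex I, stood at 210.7 FPKM in the KO and 167.5 FPKM in the WT (log2 ratio 0.33), the 1 member past 0.32, though not under either scaling (0.3027 and 0.3013). Cs, citrate synthase, stood at 298.6 FPKM in the KO and 252.6 FPKM in the WT, and Cycs, cytochrome c, at 151.0 and 128.7 FPKM. Nrf1 and Tfb2m, the 2 lower members, were named after their values were seen and had log2 ratios of -0.07 and -0.0027. In the same comparison all 12 measured macrophage markers were lower (median -0.24) and 6 of 8 osteoclast markers higher (median 0.12), and their part in this was not tested. The list was chosen with the respiratory genes of these libraries already known to be higher, so its direction is no independent evidence.

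AAGGTCA was found in 3 of 16 windows of these target genes with an entry, 18.8%, against 4.7% of all windows and 3.2% of the windows of measured genes. It was also found in 2 of 18 windows of the TFEB and TFE3 targets, 11.1%, and in 1 of 13 windows of the NFATc1 partners, 7.7%. In the calcium and calcineurin list it was found in 0 of 22. Besides Ndufb4, the genes holding it were Acadm and Sdhd, with log2 ratios of 0.20 and 0.14. The window of Ndufb4, shown because this gene differed most within the list, held it at position -55.
Ndufb4, chr16:37654319-37654618, minus strand, ERR motif in capitals: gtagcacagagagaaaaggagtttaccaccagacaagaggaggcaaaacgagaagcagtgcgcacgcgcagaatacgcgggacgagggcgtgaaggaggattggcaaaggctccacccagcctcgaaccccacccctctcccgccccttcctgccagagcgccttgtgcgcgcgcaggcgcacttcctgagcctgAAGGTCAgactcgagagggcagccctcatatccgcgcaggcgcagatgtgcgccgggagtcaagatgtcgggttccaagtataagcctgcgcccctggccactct

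**Figure D4:**
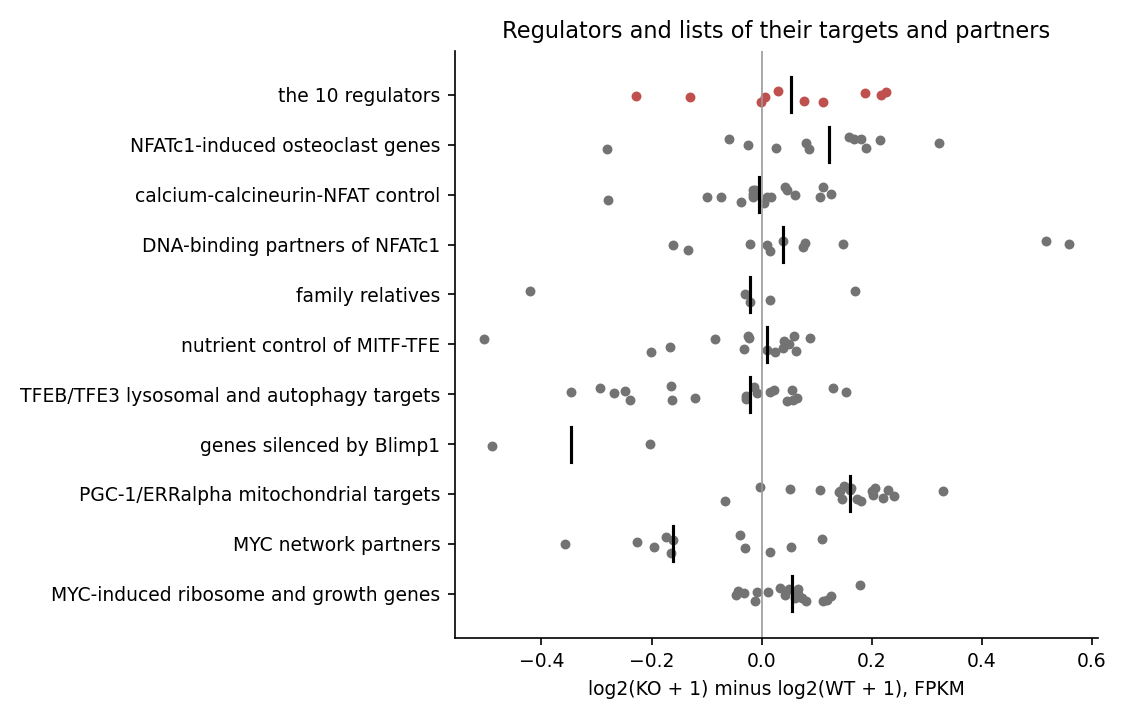
Log2 ratio (KO over WT) of each measured gene, for the 10 regulators (red) and for 10 lists of their targets, partners and relatives (grey), with a black bar at each list's median and random vertical scatter. Target genes of PGC-1 and ERRα lie mostly right of 0 (median 0.16), MYC network partners mostly left (median -0.16, or -0.0396 at 10 FPKM or more), and the 10 regulators on both sides.

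Myc (chromosome 15, 61985391 to 61990374) stood at 19.8 FPKM in the Foxo3 KO and 21.7 FPKM in the WT library. The KO value differed by -9.0% of the WT value, a log2 ratio of -0.13 that 36.6% of measured genes matched or passed. Mycn was listed at 0 in both libraries and Mycl was not found under that symbol, so Myc was the member of its family seen here. While 57.6% of all measured genes were higher in the KO, 8 of 11 measured network partners were lower. Under either scaling 9 of the partners were lower. Their median of -0.16 was -0.0396 when partners under 10 FPKM in both libraries were left out, -0.0912 with a pseudocount of 5 and -0.1001 with no minimum. Max, the obligate partner of MYC, stood at 41.0 FPKM in the KO and 45.95 FPKM in the WT. Mxd4, whose product competes with MYC for MAX and whose exons overlap Gm42846, stood at 28.5 and 33.5 FPKM in the KO and the WT. Mlxip, a sensor of glucose whose exons overlap Gm15747, had a log2 ratio of 0.05. The 1 partner past 0.32 in size was Mxi1, another MYC antagonist, named after its values were seen, at 7.07 FPKM in the KO and 9.33 FPKM in the WT (log2 ratio -0.36).

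Of the ribosome and growth genes that MYC induces, 13 of 18 were higher in the KO, against 57.6% of all measured genes, and 12 under either scaling. Their median was 0.05, or 0.0269 after centring on the median gene. Srm, spermidine synthase, read 36.2 FPKM in the KO and 33.1 FPKM in the WT, a log2 ratio of 0.13. Gnl3, the gene of nucleostemin, which overlaps Pbrm1 and small RNAs, had one of 0.12, and Ddx18, an RNA helicase gene, one of 0.11. None of the 18 passed 0.32 on the log2 scale, against 2.96% higher and 4.16% lower among measured genes. At 1.1-fold 1 was higher, against 19.2% of measured genes. It was the RNA polymerase I gene Polr1b (0.18), named after its values were seen. CACGTG was found in 5 of 16 windows of these genes, 31.2%, and in 5 of 18 windows of the network partners, 27.8%. Of all windows 7.2% held it, and of the windows of measured genes 10.4%.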

How the data were processed

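Poly-A RNA of 1 Foxo3 KO and 1 WT culture was sequenced with an Illumina TruSeq kit, per the labels. Each deposited file pairs a gene symbol with a value that was read as FPKM: no header names the unit, but the deposited values are not whole and low ones scale inversely with transcript length. A constant of 0.000001 was subtracted, which puts genes at the constant at 0. TopHat and edgeR, with the build mm10, are named in the submitters' processing notes, without versions or what each was used for. For the quantifier, the annotation and any scaling, the sources used here give nothing. Counts had been allowed for in the plan, but FPKM values were found, so no model was fitted to deposited counts. The counting errors given above were not planned for FPKM values. They take the square root of the estimated fragments as the error.

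The log2 ratio used a pseudocount of 1 FPKM, which understates differences of low genes. A gene was measured at 1 FPKM in at least 1 library, and a rule of 2-fold took the place of a test. The members, the 10 gene lists (145 entries) and the 6 marker lists were chosen with earlier results of these data known, and the motifs and the level ratios after the values were seen. Spi1, Esrrb, Esrrg, Mycl and Miz1 of the gene lists were not found under those symbols. Nor were Adgre1, Jchain and Ly6g of the marker lists. Named genes were all members and their measured relatives, Foxo3, the top gene of each marker list, and in each list the 3 genes with the largest absolute log2 ratio at 10 FPKM or more in 1 library; 1 gene of the lists is not reported here. Depth was estimated from genes with 1 annotated transcript of more than 1500 bases, as the inverse of the median of FPKM times length over the lowest cluster (85 genes in the KO, 91 in the WT library). Coordinates and exon overlaps, without regard to strand, come from GENCODE M21. Scaling alternatives were a trimmed mean (30% of log ratios from each end, 5% of mean levels) and the median gene. The scalings and the 2-fold rule were tested on simulated data, with changes larger than that of any member. The depth estimate, the counting errors, the exon overlaps and the motif search were not tested in this way. Python 3.11.15, numpy 2.4.6, pandas 2.3.3 and matplotlib 3.10.9 were used.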

Additional observations from a re-analysis of the deposited data

How the results depend on the processing

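With 1 library per group no replicate could be left out, and an interval from deposited counts was not run because the values are FPKM. The counting errors given above rest on estimated fragments instead. No paired analysis was possible because 1 culture stands for each genotype. The counts of members past the fold limit were 0 and 0 at 2-fold, 1.5-fold and a log2 ratio of 0.32, and under both other pseudocounts, both scalings and both other minimums. The largest difference of a member was 17.15%, so the other pseudocounts, scalings and minimums could hardly change these counts. At 1.1-fold, a limit added after the data were seen, they were 3 higher and 1 lower, which follows from the lower limit. The median of the members ran from 0.0265 with median centring to 0.0761 with a minimum of 10 FPKM, which drops Nfatc2. Of 40 recomputed log2 ratios of members, 0 moved by more than 0.134, the spread of all measured genes about their median (scaled median absolute deviation), and 2 changed sign, both of Tfe3 (-0.0205 with the trimmed mean and -0.0219 with median centring). Both scalings divide the KO values by about 1.02, so they act nearly as 1 alternative, and a shift that small could not reach 0.134. The pseudocounts also change ratios little at the levels of the members. The absence of moves among members is therefore no sign of robustness. Of 70 recomputed list values 1 moved by more than 0.134, that of the genes silenced by Blimp1 with a minimum of 10 FPKM (-0.4901), which leaves Irf8 alone, and 4 changed sign: the nutrient list under both scalings (-0.0130 and -0.0142) and with the mean over members (-0.0443), and the calcium and calcineurin list with no minimum (0.0036). Depth limits Nfatc2 most, the member with the fewest estimated fragments.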

Other observations

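Prdm1 lies 2.16 Mb from Foxo3 on chromosome 10, the nearest of the 10 regulators to the gene that was removed and the only one of them on that chromosome. Within 5 Mb of Foxo3, 27 genes other than Foxo3 were measured, of which 15 were higher and 12 lower in the Foxo3 KO library, with a median log2 ratio of 0.0164. Prdm1, at 0.11, was the sixth highest of the 27. The values ran from -0.38 for Sesn1, a stress-induced gene known as a FoxO target, to 0.26 for Traf3ip2, an adaptor gene of IL-17 signalling, and Sesn1 was the 1 gene of the 27 past a log2 ratio of 0.32 in size. Both genes were named after their values were seen. Whether strain sequence carried along with the knockout allele bears on Prdm1 was not tested.

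Within each library, the ratio of Nfatc1 to its target and inhibitor Rcan1 was 3.28 in the Foxo3 KO and 2.36 in the WT. The ratio of Nfatc1 to Irf8 was 10.1 in the KO and 6.24 in the WT. These are ratios of FPKM values from 1 library per group, chosen after the values were seen, and have no replicate error.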
